A study of Homo sapiens with 6 samples.

Results

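The genes described here are the 10 immediate early transcription factor genes *FOS*, *FOSB*, *FOSL1*, *FOSL2*, *JUN*, *JUNB*, *JUND*, *EGR1*, *EGR2* and *EGR3*, taken by name from the 62252 annotated genes with a value. Their mRNA was measured in 6 polyA RNA libraries of K562, a human leukemia cell line with erythroid features, 3 from cultures without doxycycline (−Dox) and 3 from cultures with it (+Dox). Both groups carry the same Flag-PCBP1 cassette under a tet-inducible promoter, exchanged into the AAVS1 locus of 1 K562 clone, and were kept as a polyclonal line under puromycin. Dox is therefore the difference between the groups, and an effect of Dox itself and one of Flag-PCBP1 cannot be told apart. The dose and time of Dox are not given for these libraries in the sources used here. For the Flag-PCBP1 line the paper states a dose, applied overnight, only in its RNA immunoprecipitation. Nor do the labels say that replicates are separate cultures, so the p-values measure the spread between these libraries. The libraries held between 70905656 and 84177316 estimated counts. All 10 genes passed the limit for testing, a mean above 10 counts.

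AP-1 is a dimer of basic leucine zipper proteins. FOS proteins bind DNA only with a partner, usually a JUN protein, while JUN proteins can also pair with each other, and the dimer binds sites such as TGAGTCA and TGACTCA. EGR proteins are zinc finger factors that bind GC-rich sites and switch on *NAB2*, whose product holds them back. Genes of both families are transcribed within minutes of a growth factor or stress signal through MAP kinases, the serum response factor SRF and its partners, and their mRNAs are mostly short-lived. In myeloid cells *EGR1* and the AP-1 genes are known for their induction during monocyte and megakaryocyte differentiation.

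The label of the libraries was checked first on *PCBP1*, the induced gene, and on cell markers. *PCBP1* mRNA was at 248, 270 and 267 CPM (counts scaled to the TMM-normalized library size) in −Dox and at 1030, 936 and 1037 CPM in +Dox, which is 3.83-fold (adjusted p = 5.22e-10, edgeR, quasi-likelihood). The antisense gene *PCBP1-AS1* shares 73.2% of the exon bases of *PCBP1*, and reads of such a pair may be split wrongly. The summed level of 7 erythroid markers lay between 7493 and 8645 CPM in each library, led by the gamma-globin gene *HBG2*, and none of the 7 was at 0. A list of 11 markers of other cell types summed to between 164.6 and 247.3 CPM. Its most abundant gene was *LYZ*, which codes for lysozyme and fell by 0.47 on the log2 scale (adjusted p = 0.00837), and 1 or 2 of the 11 were at 0 in each library. Among the defining markers, *MS4A1* (B cells) was at 0 throughout, and *CD3E* (T cells), *CD14* (monocytes) and *DCN* (fibroblasts) had no more than 16 counts in any library.

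With Dox, mRNA of 5 of the 10 genes fell (*FOSL1*, *FOSL2*, *FOSB*, *JUND* and *EGR1*), that of *JUN* rose, and *FOS*, *JUNB*, *EGR2* and *EGR3* did not pass the test (adjusted p under 0.05 in edgeR over 21045 genes). Over all genes tested 15.8% passed, 7.68% lower and 8.16% higher. The falls were between 1.16-fold for *EGR1* and 1.95-fold for *FOSL2*, and the rise of *JUN* was 1.20-fold. None of the 10 reached an absolute log2 fold change above 1 together with the p limit, which 1.46% of all genes did (0.737% higher and 0.727% lower). *FOSL2* did reach it, at −1.04, −1.03 and −1.14, without −Dox replicate 1, −Dox replicate 2 or +Dox replicate 3, and *FOSL2* (−1.14) and *FOSB* (−1.01) did once transcript length was offset. The groups did not overlap in the same 6 genes, against 33.2% of all genes tested. The median log2 fold change was −0.34 over the 10 genes and 0.006 over all genes. The number that passed depended on single libraries, with 2 genes (*FOSL1* and *FOSL2*) without −Dox replicate 3, 3 without +Dox replicate 2 and between 4 and 5 without any other library.

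**Figure D1:**
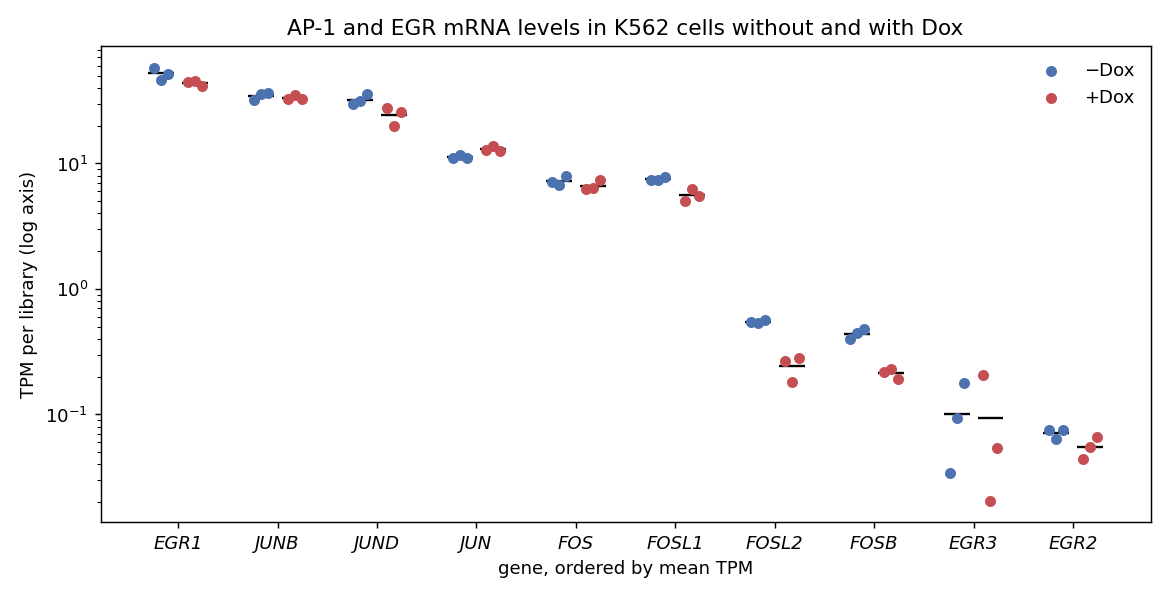
TPM of each gene in each library on a log axis, −Dox in blue and +Dox in red, with a black line at the mean of 3 libraries. *EGR1* sits highest with 41.4 to 58.0 TPM, and *EGR2* and *EGR3* lie under 0.21 TPM in every library.

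Levels can be compared between genes in TPM, which is scaled for transcript length. Over the 6 libraries *EGR1* was the most abundant of the 10, with a mean of 48.0 TPM, followed by *JUNB* (34.0), *JUND* (28.3), *JUN* (12.1), *FOS* (6.95), *FOSL1* (6.54), *FOSL2* (0.396), *FOSB* (0.327), *EGR3* (0.0979) and *EGR2* (0.0631). *EGR1*, *JUNB*, *JUND* and *JUN* kept this order within each of the 6 libraries. *FOS* and *FOSL1* did not keep a fixed order, nor did *FOSL2* and *FOSB* or *EGR3* and *EGR2*. The expressed AP-1 genes were thus mostly of the JUN family, whose summed level was 78.0 ± 5.44 TPM in −Dox and 70.9 ± 1.98 TPM in +Dox (SD, n = 3), with overlapping groups. The FOS family summed to 15.7 ± 0.881 TPM in −Dox and 12.7 ± 0.862 TPM in +Dox (SD, n = 3), and here the groups did not overlap (p = 0.1 in a two-sided exact permutation test, which cannot go lower with 3 libraries against 3).

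Among the FOS genes, *FOSL1* (ENSG00000175592.9, chr11:65892049-65900573 on GRCh38, minus strand) codes for FRA1, a FOS protein without the C-terminal activation domain of FOS. It was at 10.6, 11.1 and 11.5 CPM in −Dox and at 7.39, 7.98 and 8.66 CPM in +Dox. Each +Dox library lay under each −Dox library. This is a difference of −0.46 on the log2 scale (SE 0.088, the standard error, adjusted p = 0.00336), and the adjusted p stayed between 6.19e-05 (DESeq2) and 0.0496 (limma on TPM) over 14 other settings.

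*FOSL2* (ENSG00000075426.12, chr2:28392448-28417317, plus strand) codes for FRA2, the other FOS-related antigen. Its level was 3.07, 3.12 and 4.08 CPM in −Dox and 1.82, 1.29 and 2.16 CPM in +Dox. The groups were separate, with −Dox replicate 3 the highest library and +Dox replicate 2 the lowest. At −0.97 on the log2 scale (SE 0.202, adjusted p = 0.00609) it had the strongest fall of the 10 that passed the test, and it passed in all 14 other settings, where the log2 fold change ran from −1.14 to −0.78. The most abundant transcript of the gene held 74.0% to 100% of its TPM in a library.

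*FOSB* (ENSG00000125740.15, chr19:45467995-45475179, plus strand) codes for a FOS protein that also occurs as a shorter splice form. The gene had only 50 to 115 counts per library, or 1.21, 1.48 and 1.22 CPM in −Dox and 0.775, 0.840 and 0.616 CPM in +Dox. The groups did not overlap. Its log2 fold change came to −0.80 (SE 0.241, adjusted p = 0.0386), and the call was lost, at an adjusted p between 0.0535 and 0.146, whichever of the 6 libraries was left out. None of its annotated transcripts reached a mean of 0.1 TPM, so the splice forms were not compared.

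*FOS* itself (ENSG00000170345.10, chr14:75278826-75282230, plus strand), the founding member of the family, stood apart from these 3. It was at 8.77, 8.42 and 9.44 CPM in −Dox and at 7.85, 7.99 and 9.85 CPM in +Dox. The highest and the lowest library were both +Dox, so the groups overlapped. On the log2 scale *FOS* differed by −0.051 (adjusted p = 0.809), with a 95% interval from −0.28 to 0.17. As a ratio of +Dox to −Dox, this interval runs from 0.826 to 1.13. Of 10 annotated transcripts of *FOS*, 7 reached a mean of 0.1 TPM. By TPM, FOS-206 had a larger share in +Dox (18.8% ± 2.66 against 11.7% ± 1.69) and FOS-204 a smaller one (13.2% ± 1.05 against 15.4% ± 0.619), each without overlap (SD, n = 3 per group, exact permutation test, p = 0.1). By counts, the most abundant transcript, FOS-201, held 52.7% ± 3.45 in +Dox and 57.9% ± 1.20 in −Dox (SD, n = 3 per group, exact permutation test, p = 0.1), while its groups overlapped by TPM and those of FOS-204 overlapped by counts. Such shares are Salmon's estimates for overlapping transcripts.

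In the JUN family the members moved in different directions. *JUN* (ENSG00000177606.9, chr1:58776845-58784048, minus strand), which codes for c-Jun, was at 32.6, 37.7 and 33.9 CPM in −Dox and at 41.9, 42.4 and 40.5 CPM in +Dox. All +Dox libraries were higher than the −Dox libraries, and +Dox was the narrower group. The rise was 0.26 on the log2 scale (SE 0.062, adjusted p = 0.0121). Leaving out −Dox replicate 3 moved the adjusted p to 0.0531, and leaving out any other library kept it between 0.00705 and 0.0450. The gene has 2 annotated transcripts, JUN-201, typed as protein coding, and JUN-202, typed as a target of nonsense-mediated decay. They took 31.1% ± 4.44 and 68.9% ± 4.44 of the TPM in +Dox, and 27.1% ± 0.891 and 72.9% ± 0.891 in −Dox (SD, n = 3). These groups overlapped.

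*JUND* (ENSG00000130522.6, chr19:18279694-18281622, minus strand), the JUN gene that is typically expressed steadily in resting cells, moved the other way. It was at 45.0, 55.5 and 57.7 CPM in −Dox and at 42.1, 34.8 and 44.3 CPM in +Dox. The groups were separated only by the gap between +Dox replicate 3 and −Dox replicate 1. It fell by 0.39 on the log2 scale (SE 0.098, adjusted p = 0.0179). The adjusted p rose to 0.0543 without −Dox replicate 2, 0.0873 without −Dox replicate 3 and 0.0687 without +Dox replicate 2. A short transcript, JUND-202 of 500 bases, was listed at 3.49, 3.95 and 5.36 TPM in −Dox and at 6.80, 0 and 3.34 TPM in +Dox, and *JUND* did not pass once transcript length was offset (adjusted p = 0.130).

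*JUNB* (ENSG00000171223.6, chr19:12791486-12793315, plus strand), often a weaker activator than c-Jun, was at 54.2, 68.5 and 65.8 CPM in −Dox and at 62.0, 61.2 and 61.5 CPM in +Dox. All 3 +Dox libraries lay inside the range of −Dox. On the log2 scale *JUNB* differed by −0.029 (adjusted p = 0.848), with a 95% interval from −0.19 to 0.13. Its exons share 14.2% of their bases with *HOOK2*, which is read in the opposite direction and differed by 0.010 on the log2 scale (adjusted p = 0.955).

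**Figure D2:**
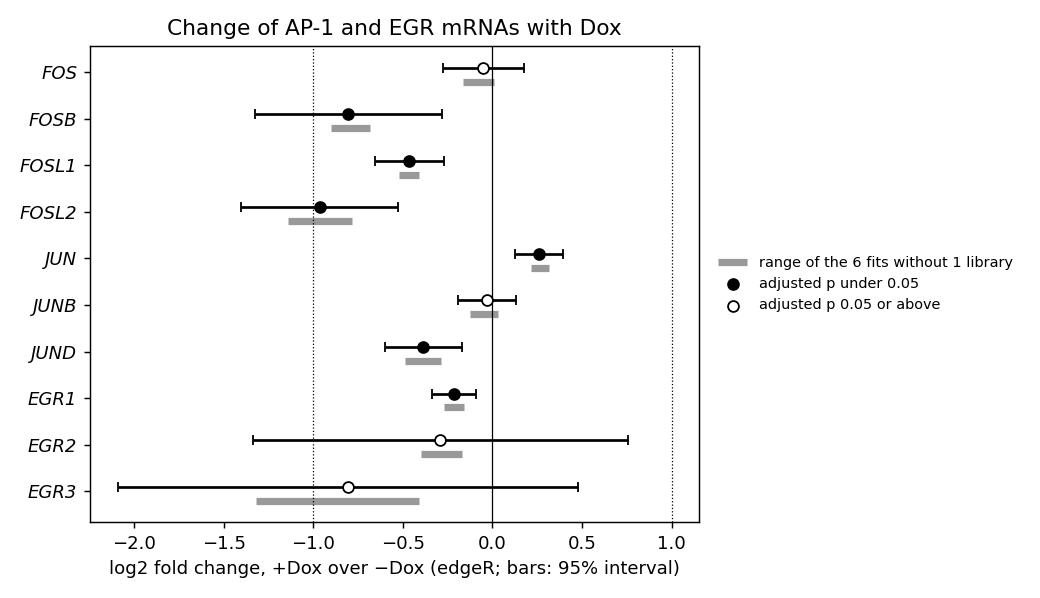
Log2 fold change of each gene, +Dox over −Dox, by edgeR with its 95% interval, filled where the adjusted p is under 0.05. Grey bars give the range of the 6 fits that leave out 1 library. The interval of *JUN* lies above 0, those of *FOSB*, *FOSL1*, *FOSL2*, *JUND* and *EGR1* lie under 0, and dotted lines mark a log2 fold change of −1 and 1.

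The make-up of the FOS and JUN families differed between the groups. *FOS* held 45.9%, 44.5% and 47.3% of the FOS family TPM in −Dox and 53.4%, 49.2% and 55.1% in +Dox, a difference of 6.65 percentage points. *FOSL2* held 3.50% ± 0.101 in −Dox and 1.92% ± 0.472 in +Dox, and *FOSB* 2.80% ± 0.191 and 1.69% ± 0.215 (SD, n = 3). The shares of these 3 genes did not overlap between the groups, whereas those of *FOSL1* did (47.8% ± 1.28 in −Dox and 43.8% ± 3.36 in +Dox). In the JUN family, *JUN* held 15.2%, 14.8% and 13.2% in −Dox and 17.6%, 20.1% and 17.6% in +Dox, a difference of 4.02 points. The share of *JUND* was 6.85 points lower in +Dox, at 40.8%, 39.8% and 43.1% in −Dox against 37.9%, 29.1% and 36.3%. *JUNB* kept between 43.7% and 50.8%, with overlapping groups. For each of the 5 shares that did not overlap, an exact permutation test gave p = 0.1, the smallest possible, and a larger share of one gene in a family is not independent of a smaller share of another. The sizes depended on the unit. With estimated counts in place of TPM, the share of *FOSL2* was 13.8% in −Dox and 9.15% in +Dox, a difference of −4.69 points against −1.58 by TPM. The difference was then 5.81 points for *JUN* and −1.33 points for *FOSB*, against −1.11 by TPM.

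**Figure D3:**
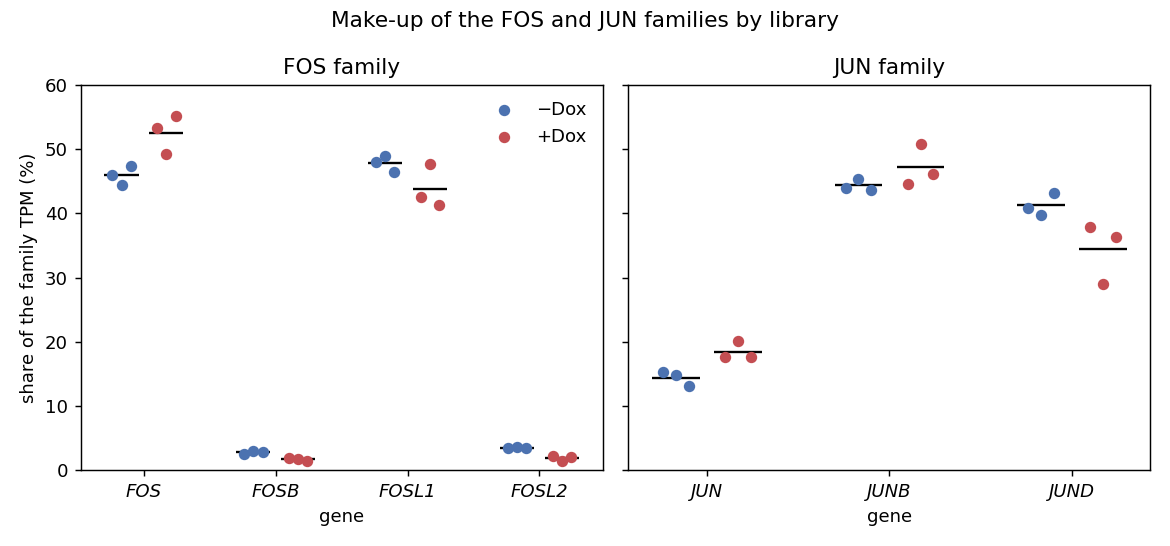
Share of each gene in the summed TPM of the FOS family (left) and the JUN family (right), in percent, by library, with a black line at the mean of 3. *FOS* and *JUN* take a larger share in each +Dox library (red) than in any −Dox library (blue), and *FOSB*, *FOSL2* and *JUND* a smaller one.

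*EGR1* (ENSG00000120738.8, chr5:138465479-138469303, plus strand) was the most abundant of the 10 by counts as well, with 10735 to 15463 counts per library. It was at 182.7, 157.2 and 168.3 CPM in −Dox and at 151.3, 145.4 and 142.0 CPM in +Dox. All +Dox libraries were lower, by a narrow gap between −Dox replicate 2 and +Dox replicate 1. *EGR1* fell by 0.21 on the log2 scale (SE 0.057, adjusted p = 0.0230). The call was lost in 4 of the 6 fits without 1 library, which gave adjusted p values of 0.0611 without −Dox replicate 1, 0.0625 without −Dox replicate 3, 0.0662 without +Dox replicate 2 and 0.0933 without +Dox replicate 3. Nor did *EGR1* pass once transcript length was offset (adjusted p = 0.0646) or with limma on TPM (adjusted p = 0.118). *EGR1* has 1 annotated transcript, and it made up 99.4% to 99.8% of the summed TPM of the 3 EGR genes in each library.

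*EGR2*, known from myelination and T cell anergy, and *EGR3*, known from lymphocytes and muscle spindles, were near the floor of detection. *EGR2* had 18, 15 and 17 counts in −Dox and 10, 15 and 16 in +Dox, and *EGR3* had 13, 35 and 44 in −Dox and 26, 8 and 18 in +Dox. Both pairs of groups overlapped. The 95% intervals of their log2 fold changes ran from −1.34 to 0.76 and from −2.09 to 0.48, so that a fall by 1 on the log2 scale lay inside both (adjusted p = 0.757 and 0.419).

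Promoters are shown for *EGR1*, which has the highest level and fell, and for *JUN*, the gene that rose. Of the 10 genes, 8 matched the RefSeq promoter table (GRCh38.p14, 250 bases before to 50 after a start), with 10 promoters, and *FOSL1* and *EGR3* had no entry. Those of *EGR1* at chr5:138465229-138465478 (plus strand) and of *JUN* at chr1:58784049-58784297 (minus strand) are given 5′ to 3′ up to the first annotated exon base. Capitals mark 2 CArG boxes, the motif bound by SRF, in *EGR1*, and TGACATCA, an AP-1-like element through which c-Jun is known to act on its own gene, in *JUN*.
EGR1: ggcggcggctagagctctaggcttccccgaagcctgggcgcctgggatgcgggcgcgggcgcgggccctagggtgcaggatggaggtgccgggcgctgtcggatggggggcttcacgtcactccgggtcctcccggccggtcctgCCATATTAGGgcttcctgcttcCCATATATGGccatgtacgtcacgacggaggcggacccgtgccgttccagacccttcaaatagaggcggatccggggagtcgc
JUN: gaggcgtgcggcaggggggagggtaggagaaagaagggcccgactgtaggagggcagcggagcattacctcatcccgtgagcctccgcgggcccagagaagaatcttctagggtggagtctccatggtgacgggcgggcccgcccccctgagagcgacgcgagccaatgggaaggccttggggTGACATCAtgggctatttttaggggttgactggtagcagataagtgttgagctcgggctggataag

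The first bases of the *EGR1* boxes lie 105 and 83 bases before the start, and that of the *JUN* element 67 bases before it. A CArG box on either strand was found in 1.29% of 35116 promoters of this length and in 2 of the 10 here, the other being 1 of the 3 promoters of *EGR2*. TGACATCA was found in 2.61% of all promoters and, among the 10, in that of *JUN*. The AP-1 sites TGAGTCA and TGACTCA were found in 4.95% of all promoters and in 1 of the 10, that of *FOSL2*, where the site lies within the 50 bases after the start. The cAMP response element TGACGTCA was found in 1.85% and in that of *JUND*, and TATAAA in 11.5% and in those of *FOS*, *FOSB* and *JUNB*. The EGR sites GCGTGGGCG and GCGGGGGCG were found in 5.77% of all promoters and in 0 of the 10. Of the 4 genes that fell and have a promoter here, *EGR1*, *FOSB*, *FOSL2* and *JUND*, each held a different one of these motifs. Every motif was searched on both strands, a CArG box can hold TATAAA although those found here do not, and a match is a run of letters, not a measured binding site. The sites in the promoters of *FOSL2* and *JUND*, both of which fell, are shown with the motif in capitals.
FOSL2, chr2:28392850-28392879, plus strand: gtgccattgtagTGACTCAtctcgggcaga
JUND, chr19:18281804-18281833, minus strand: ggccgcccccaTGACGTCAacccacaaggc

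AU-rich stretches with the pentamer ATTTA mark many short-lived immediate early mRNAs for decay. In the 3′ untranslated region of the reference transcript, *FOS* had 5 pentamers in 806 bases (6.20 per kilobase) and *JUNB* 2 in 500 bases, against a median of 1.68 per kilobase over 17791 transcripts with a region of at least 100 bases. *EGR1* had the lowest density, 0.818 per kilobase. The nonamer TTATTTATT was found in *FOS* and *FOSL2* and in 9.07% of all. Of the 4 genes above the median density, *FOS* and *JUNB* did not pass the test and *JUN* (2.34 per kilobase) rose. *FOSL2*, with 1.85 per kilobase and the nonamer, had the strongest fall that passed. *EGR1*, with the lowest density, fell too. A link between density and change was not tested. The stretch with the nonamer is shown for both genes that carry it, with the pentamers in capitals.
FOS: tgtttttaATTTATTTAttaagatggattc
FOSL2: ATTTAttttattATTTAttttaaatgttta

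Of 14 other basic leucine zipper genes whose products can join AP-1, 11 were tested, and 4 fell while none rose (36.4% called, against 15.8% of all genes). *BATF3*, at 3.37 ± 0.598 CPM in −Dox against 1.80 ± 0.225 (SD, n = 3), fell by 0.90 on the log2 scale (adjusted p = 0.00406). *ATF3*, a stress-induced repressor, fell by 0.89 on that scale (adjusted p = 0.00433), with a −Dox group that spread widely (11.7 ± 3.82 CPM against 6.30 ± 0.192 CPM, SD, n = 3). The small MAF genes *MAFF* (−0.42, adjusted p = 0.0164) and *MAFK* (−0.36, adjusted p = 0.0171) fell as well, while *MAFG*, at 62.9 CPM in −Dox, differed by −0.040 (adjusted p = 0.657). *ATF2* and *ATF7*, which partner c-Jun, had values of −0.030 and −0.055 (adjusted p = 0.763 and 0.587). The median of the 11 was −0.055, or −0.10 with limma on TPM. Without 1 library it ran from −0.089 (−Dox replicate 2 left out) to −0.039 (−Dox replicate 3 left out). Without −Dox replicate 2 only *BATF3* and *ATF3* passed. The 3 that were not tested, among them *BATF* and *MAF*, had no more than 8 counts in any library.

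The corepressor gene *NAB2*, itself an EGR target, did not pass at a log2 fold change of −0.21 (adjusted p = 0.139), which became −0.31 (adjusted p = 0.00708) without −Dox replicate 1. *NAB1* had one of 0.13 (adjusted p = 0.191), and *EGR4* had at most 5 counts in a library. Of 12 EGR targets from general knowledge, all tested, 3 fell and 1 rose (33.3% called, against 15.8%). The growth factor genes *PDGFB* and *PDGFA* fell with log2 fold changes of −1.96 (adjusted p = 3.01e-04) and −0.69 (adjusted p = 0.00246), and the adhesion gene *ICAM1* with one of −0.35 (adjusted p = 0.00829). *HPSE*, the heparanase gene, rose from 2.65 ± 0.345 to 5.20 ± 0.0996 CPM (SD, n = 3; adjusted p = 3.90e-04). *PDGFA* did not pass once transcript length was offset (adjusted p = 0.192) or with limma on TPM (adjusted p = 0.220). The median of the 12 was −0.18, or −0.088 without +Dox replicate 2 and −0.11 without −Dox replicate 3.

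Of 20 known AP-1 targets 15 were tested, and 9 fell while none rose, where 7.68% of all genes tested fell. Their median log2 fold change was −0.89. Beside the cytokine genes *IL6* (−2.20), *CXCL8* (−2.12) and *LIF* (−1.64), these were *CCND1*, *CD44*, *PLAU*, *PTGS2*, *TNFRSF12A* and *VIM*. The cyclin D1 gene *CCND1* had 16.7 ± 0.369 CPM without Dox against 8.46 ± 0.859 (SD, n = 3), a fall by 0.98 on the log2 scale (adjusted p = 1.01e-05). *CD44*, a hyaluronan receptor, fell with a log2 fold change of −1.16 (adjusted p = 2.20e-04), the protease gene *PLAU* with −0.89 (adjusted p = 0.00152) and *VIM*, the vimentin gene, with −0.44 (adjusted p = 9.61e-04). *TIMP1*, at 131 CPM in −Dox, had a value of −0.042 (adjusted p = 0.755). Without −Dox replicate 3 the count was 6 and the median −0.52, without +Dox replicate 1 they were 6 and −0.59, and with limma on TPM 7 and −0.62. DESeq2 called 1 gene of the list higher. The matrix metalloprotease genes *MMP1*, *MMP3*, *MMP9* and *MMP10* and the gene *HMOX1*, again with no more than 8 counts, were not tested. The genes of this list have other regulators too, and no binding of AP-1 was measured here.

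**Figure D4:**
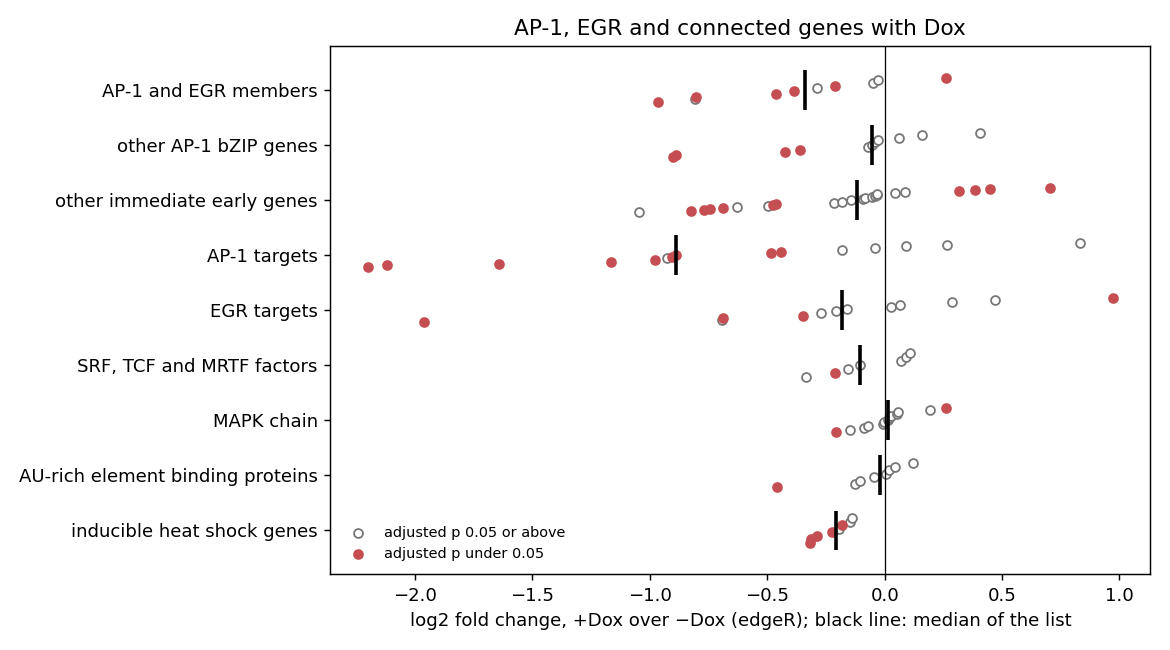
Log2 fold change, +Dox over −Dox, of each tested gene in 9 lists, filled red where the adjusted p by edgeR is under 0.05, with a black line at the median of the list. The AP-1 targets have the lowest median (−0.89, or −0.52 without −Dox replicate 3) of the 9.

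The other immediate early genes did not move as a block. Of 30 listed, 24 were tested, of which 6 fell and 4 rose (41.7% called, against 15.8%), with a median of −0.12. *MYC*, at 150.5 ± 3.40 CPM in −Dox against 93.3 ± 4.46 (SD, n = 3), fell by 0.69 on the log2 scale (adjusted p = 2.15e-06), the BCL2 family gene *MCL1* fell with −0.46 (adjusted p = 2.18e-05) and *IER3* with −0.74 (adjusted p = 3.77e-05). *TRIB1* (−0.82), *DUSP5* (−0.77), a phosphatase gene that acts on ERK, and *NR4A2* (−0.47) fell too. The kinase gene *SGK1* rose with 0.70 (adjusted p = 3.10e-04), and *PPP1R15A* (0.32), *BTG2* (0.45) and *CCN1* (0.39, adjusted p = 0.0482) rose as well. Without 1 library, 4 to 7 genes of the list fell and 3 or 4 rose, and with limma on TPM 3 fell and 2 rose. *IER2*, one of the most abundant at 186 CPM in −Dox, had a value of −0.042 (adjusted p = 0.653). Serum-responsive genes such as *DUSP1* (0.088), *ZFP36* (0.044) and *KLF6* (−0.093) did not pass either.

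The share called among genes that act upstream was near the 15.8% of all genes, at 14.3% for SRF and its partners, 15.4% for the MAPK chain and 12.5% for AU-rich element binding proteins. These shares rest on 1, 2 and 1 calls. DESeq2 called 3 of 7 and 4 of 13 genes, edgeR made no call in the SRF list without −Dox replicate 3 or without any 1 of the +Dox replicates, and none in the MAPK chain without −Dox replicate 1 or +Dox replicate 1. Without −Dox replicate 1 it called 2 of the 8 AU-rich element binding protein genes. Of 7 genes for SRF, its ternary complex partners, MRTF coactivators and CREB1, *ELK1* fell (log2 fold change −0.21, adjusted p = 0.0318), a call kept without −Dox replicate 1 alone among the 6 fits with a library left out. *SRF* had −0.16 (adjusted p = 0.0741) and *ELK3* −0.33 (adjusted p = 0.0617). Of 13 genes of the MAPK chain, *MAPK3*, the gene of ERK1, rose (0.26, adjusted p = 0.0243) and *RPS6KA3* fell (−0.21, adjusted p = 0.0292), each in 3 of the 6 fits without 1 library. The abundance of these mRNAs says nothing of the phosphorylation of their proteins. Of 8 genes for AU-rich element binding proteins *ZFP36L2*, a decay factor, fell (−0.46, adjusted p = 5.62e-04), and the other 7 did not pass, *ELAVL1* with −0.10 (adjusted p = 0.137) and *ZFP36* with an adjusted p of 0.867.

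Several other signals moved with the same groups. Of 8 genes listed as inducible heat shock genes, a group that responds to stress and handling of cells, 5 fell (7.68% of all genes did). Among them were *HSP90AA1* (−0.32, adjusted p = 4.08e-04) and *HSPA8* (−0.31, adjusted p = 4.24e-04). *HSPA1A* (−0.15, adjusted p = 0.180), *HSPA1B* (−0.20, adjusted p = 0.0939) and *HSPB1* (−0.14, adjusted p = 0.235) did not pass, and their groups overlapped. The number that fell was 3 to 8 without 1 library. The summed level of the 8 was between 6042 and 6252 CPM in +Dox and between 7367 and 7662 CPM in −Dox. *HSPA8* and *HSP90AA1* led this sum, with means of 3043 and 2830 CPM over the 6 libraries. Of the 7 erythroid markers 3 rose, as did 8.16% of all genes, among them *KLF1* (0.46, adjusted p = 0.00121) and *TAL1* (0.44, adjusted p = 8.34e-05). Their part in the values of the AP-1 and EGR genes was not tested. In bulk RNA, fewer cells that express a gene and less of its mRNA in each cell cannot be told apart. Within −Dox, replicate 1 stood somewhat apart, with 2 of the 10 members (6 and 7 in replicates 2 and 3), 3 of 15 AP-1 targets and 2 of 8 heat shock genes above their group mean.

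The genes whose log2 CPM most resembled a member over the 6 libraries are given as a description, since 14331 genes were compared over few libraries that fall into 2 groups. For *EGR1* they were *BCL2* (Pearson r = 0.998), *ZDHHC9* (r = 0.993) and *MYO3B* (r = 0.992). For *JUN* they were *SAGSIN1* (r = 0.990), *EIF2AK3-DT* (r = 0.990) and *APOBEC3D* (r = 0.987), the first of them 0.35 higher on the log2 scale (adjusted p = 0.00742). For *FOS* they were *UXT-AS1* (r = 0.988), *SPOP* (r = 0.983) and *WDR45B* (r = 0.976), with log2 fold changes of −0.19, −0.011 and −0.010.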

How the data were processed

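Messenger RNA of 6 K562 libraries (3 −Dox, 3 +Dox) was sequenced by the authors (polyA selected, paired end) and quantified with Salmon 1.10.2. The authors deposited an estimated count per transcript, not scaled for depth or length, and a TPM value, scaled by effective length to a common total. The submitters' processing notes name hg38. The index, strand and bias settings are not given in the sources used here, so genes that overlap on opposite strands share uncertainty. Of 252045 transcripts, 251612 matched GENCODE 44 (GRCh38) without regard to version, and the 433 others held 0.125% to 0.138% of a library. Estimated counts and TPM were summed per gene and counts rounded.

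The test was that of edgeR 4.0.16, for genes averaging over 10 counts (glmQLFit, glmQLFTest, TMM, two-sided, Benjamini-Hochberg over all 21045 genes) in R 4.3.3, and every adjusted p in the text is from edgeR unless another tool is named. The standard error is the log2 fold change over the square root of F. CPM are TMM-normalized. Alternatives were DESeq2 1.42.0, limma 3.58.1 on log2(TPM + 0.1), other size factors, filters, a length offset, a replicate term and each library left out. In data simulated from the mean levels of these libraries, edgeR called 177 of 200 genes changed 2-fold (88.5%) and 9 unchanged genes over 21005 genes. The simulated spread between replicates was set to the same fixed value for every gene, not estimated from these libraries. The members that passed changed by less than 2-fold, so this rate does not apply to them. Replicates differed by more than counting noise (chi-square per gene 8.19 to 17.5).

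The members and lists were chosen with earlier results of these data known. The lists were written from general knowledge. Named are all members, *PCBP1*, up to 5 genes of each list by p, and the 3 genes most correlated with *FOS*, *JUN* and *EGR1* (mean CPM of 1 or more). Other listed genes that passed the test, *HOOK2*, *ATF2*, *ATF7*, *MAFG*, *TIMP1*, *IER2*, *DUSP1*, *ZFP36*, *KLF6*, *HBG2*, *HSPA1A*, *HSPA1B*, *HSPB1* and untested genes were named after their values were seen. Figures were drawn with matplotlib 3.10.9.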

Additional observations from a re-analysis of the deposited data

How the results depend on the processing

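The log2 fold changes of *PCBP1*, *FOSL1* and *FOSL2* passed 0.05 in all 14 alternatives. With limma on log2(TPM + 0.1) 3 members passed (*FOSB*, *FOSL1* and *FOSL2*), and 1634 genes in all against 3333, with 1 other AP-1 bZIP gene, 5 other immediate early genes, 2 EGR targets and 2 heat shock genes. With an offset for transcript length 1883 genes passed, with 4 members, 2 bZIP genes and 3 heat shock genes. Tests of genes with any count gave 515 genes past an absolute log2 fold change of 1 in place of 308. Without 1 library, between 2 and 5 members, 2 and 4 bZIP genes and 3 and 8 heat shock genes passed. Without 1 library the log2 fold change of *FOS* ran from −0.16 to 0.0079 (without +Dox replicate 1) and that of *JUNB* from −0.13 to 0.032 (−Dox replicate 2 left out), with 0.0050 when −Dox replicate 3 was. The sign also turned for *PECAM1* with the length offset (−0.088), and none of these passed the test. DESeq2 called the same number of members, 6, and gave no adjusted p for *EGR2* and *EGR3*. The counts per list and the values of their genes under other settings were added after seeing the data.

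Deviations from the group mean had r between −0.206 and 0.0003 over 14331 genes for libraries with the same number. For libraries with different numbers r lay between −0.155 and 0.179. The deviations of the 3 libraries of a group sum to 0, so these values cannot decide whether the numbers pair the samples. With the replicate number as a term (replicate block), 5 members passed and *FOSB* had an adjusted p of 0.0591 by edgeR. The members with the fewest counts, *EGR2*, *EGR3* and *FOSB* (at most 115 in a library), had the largest standard errors.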
